A study of Mus musculus with 12 samples.

Results

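The livers described here came from mice labelled as Tiparp knockouts (Tiparp -/-, background C57BL/6;129Sv, aged 8 weeks) that were injected intraperitoneally with the dioxin TCDD, 30 µg per kg, or were treated with corn oil. The comparison is TCDD minus corn oil within the knockout, for each probe set of a whole-transcript array, and it rests on 6 of the 12 arrays of the series, 3 per group. The other 6 arrays are wild-type livers of the same background, age and treatments and serve to set the knockout values beside. Each array holds liver RNA labelled as a separate biological replicate of 1 group, and p-values therefore measure the spread between these arrays. The labels give neither the time between injection and collection nor the sex of the mice, nor how the Tiparp allele was disrupted.

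TCDD binds the aryl hydrocarbon receptor (AhR), a ligand-activated transcription factor that pairs with ARNT and binds response elements with the core letters GCGTG. Its classical targets are the cytochrome P450 genes of the CYP1 family, other enzymes that oxidise and conjugate foreign compounds, the AhR repressor Ahrr, and Tiparp itself. TIPARP is a mono-ADP-ribosyltransferase that acts as a feedback repressor of AhR, and TCDD in rodents is known for fatty liver, loss of body weight and disturbed glucose and bile acid metabolism.

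Values are log2 expression levels made by the authors with RMA, so a difference of 1 is a factor of 2. Changes are TCDD minus corn oil on that scale, with the standard error (SE) from limma, and a probe set was called where the p-value of limma, adjusted by Benjamini-Hochberg over all 23332 probe sets, was below 0.05. Array medians lay between 6.91 and 7.00. On the main component of variation (23.5% of the variance) the knockout corn oil arrays stood apart, at 45.8, 36.7 and 17.2, against -30.5, -9.24 and -22.4 for knockout TCDD and -11.7 to 7.99 for the wild-type arrays. The array labels fitted liver, since 17 measured hepatocyte markers averaged 12.76 to 12.92 in the knockout corn oil arrays and 12.75 to 12.82 in the knockout TCDD arrays, and none of them was called. Tiparp read 7.10, 6.20 and 5.58 in the knockout corn oil arrays and 6.82, 6.70 and 6.91 in the knockout TCDD arrays, a change of 0.52 ± 0.34 (SE, adjusted p = 0.429) that was not called, while wild-type means were 7.39 with corn oil and 10.52 with TCDD. Which exons its probe set covers is unknown here.

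In knockout liver TCDD changed 1303 of 23332 probe sets (5.58%), of which 516 rose (2.21%) and 787 fell (3.37%). The rises were larger. Their median change was 0.77, with 174 at least 2-fold and 37 at least 4-fold, whereas the falls had a median of -0.63, with 139 at least 2-fold and 6 at least 4-fold. Over all probe sets the median change was -0.05. The excess of falls depended on the scaling, because 664 probe sets were called higher and 458 lower after quantile normalization of the deposited values again, and 639 and 536 after centring each array on its median. In wild-type liver the same fit called 27 probe sets higher (0.116%) and 0 lower, with 1698 at an unadjusted p under 0.05 in limma.

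Single arrays had a large part in the knockout counts. Without knockout corn oil replicate 3 there were 657 rises and 1347 falls, and without knockout corn oil replicate 2 there were 280 and 263. Leaving out TCDD replicate 1 gave 349 rises and 234 falls, and leaving out TCDD replicate 3 gave 226 and 209. Without corn oil replicate 1 the total was 822, and without TCDD replicate 2 it was 1156. A core of 358 probe sets, 197 higher and 161 lower, was called with all arrays and also whichever single knockout array was left out. Where a gene is said below to have lost the call without an array, that array alone was left out, and the range of adjusted p is over the fits named. With only the 6 knockout arrays in the fit, 119 rises and 65 falls were called.

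**Figure D1:**
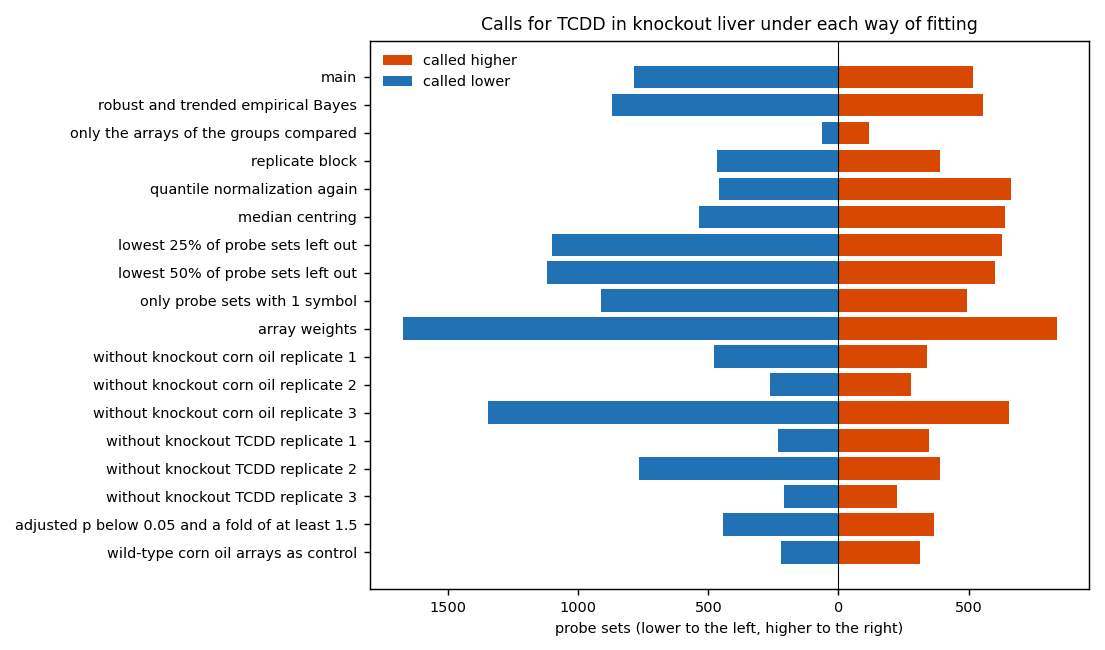
Number of probe sets called higher (right, orange) and lower (left, blue) for TCDD against corn oil in knockout liver, in the fit of all 12 arrays (main) and under each alternative. The total ran from 184 with only the 6 knockout arrays to 2515 with array weights.

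Wild-type levels, which entered the choice of these probe sets only through the shared estimate of spread, show where each knockout group lay. Among the 516 rises, 467 had the knockout TCDD group as the highest of the 4 group means, and 392 had the knockout corn oil group as the lowest. Among the 787 falls, 737 had the knockout corn oil group as the highest mean and 657 had knockout TCDD as the lowest. Over all 23332 probe sets knockout corn oil was the highest mean for 8442 and the lowest for 5163, and knockout TCDD the highest for 5287 and the lowest for 7707. Relative to the wild-type corn oil mean, the median probe set among the falls stood at 0.37 in knockout corn oil, -0.24 in knockout TCDD and -0.01 in wild-type TCDD. For the rises these medians were -0.22, 0.52 and 0.16. Because the sets were chosen by the difference between the knockout groups, that choice and chance deviations of those arrays enter these positions too. With the wild-type corn oil arrays as the control for knockout TCDD, 313 probe sets were called higher and 220 lower.

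**Figure D2:**
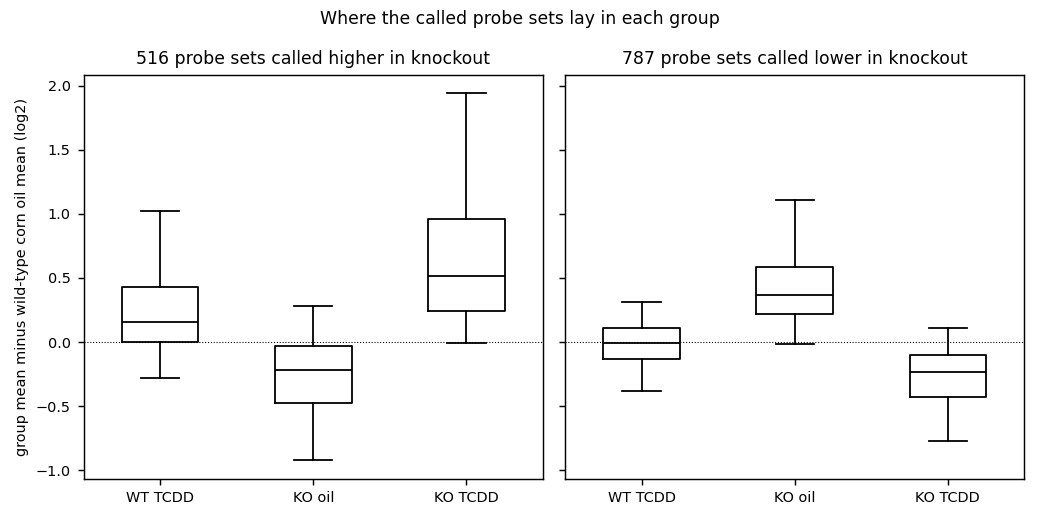
Group mean minus wild-type corn oil mean (log2) for the 516 probe sets called higher and the 787 called lower by TCDD in knockout liver. Boxes show quartiles, the line the median and whiskers the 5th to 95th percentile of probe sets. For the falls, knockout corn oil has a median of 0.37 and knockout TCDD one of -0.24.

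Among single genes, 388 of 14860 rose (2.61%) and 575 fell (3.87%). The largest rise was that of Cyp1a1, the cytochrome P450 that serves as the standard readout of AhR activity. Its levels were 13.27, 13.32 and 13.34 in the knockout TCDD arrays and 8.84, 8.07 and 8.12 in the knockout corn oil arrays, a change of 4.97 ± 0.32 (SE, adjusted p = 6.29e-05). Knockout TCDD values sat close to the wild-type TCDD mean of 13.24, and the knockout corn oil arrays were above the wild-type corn oil mean of 6.32, so the change was smaller than the 6.92 seen in wild-type liver; the difference between genotypes was not called (adjusted p = 0.0973). Cyp1b1, a P450 with low expression in untreated liver, read 8.73, 10.95 and 10.97 with TCDD and 6.63, 6.44 and 6.22 with corn oil, a change of 3.79 ± 0.49 (SE, adjusted p = 0.00277). TCDD replicate 1 was the lowest of the 3 treated arrays by a wide margin but lay above every control array.

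Ecel1, which encodes an endothelin-converting enzyme-like peptidase known from neurons, had levels of 9.80, 10.70 and 11.22 under TCDD against 6.49, 6.41 and 6.40 under corn oil, a change of 4.14 ± 0.30 (SE, adjusted p = 1.15e-04). Fabp12, of the fatty acid-binding protein family, read 9.52, 10.40 and 10.30 against 6.83, 5.46 and 5.61 and changed by 4.11 ± 0.36 (SE, adjusted p = 3.53e-04). The protein kinase gene Dclk3 read 10.36, 10.71 and 10.88 against 7.11, 7.20 and 7.59 and changed by 3.35 ± 0.20 (SE, adjusted p = 5.87e-05). For all 3 genes every treated array lay far above every control array. Slc34a2, a sodium-dependent phosphate transporter known from lung and intestine, was at 9.93, 9.99 and 10.87 with TCDD and 7.37, 6.78 and 6.76 with corn oil, a rise of 3.29 ± 0.48 (SE, adjusted p = 0.00507). Its wild-type means of 8.57 with corn oil and 9.01 with TCDD lay between the knockout groups.

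Promoter sequences of some of the largest rises are shown because the AhR core letters were searched in them. The entries are from RefSeq (GRCm38.p6), span 250 bases before to 50 bases after the annotated start, and are written 5′ to 3′ on the gene's strand, with capitals for GCGTG or its reverse complement CACGC. Cyp1a1 (chr9:57697363-57697662, plus strand) has 1 match beginning at -54. Cyp1b1 (chr17:79715012-79715311, minus strand) has 1 beginning at -76, and Slc34a2 (chr5:53049103-53049402, plus strand) has 1 beginning at -78. Ecel1 (chr1:87156307-87156606, minus strand) has 0 in this window. Tuba8 and Nqo1, the next largest rises with an entry, also have 0 matches, and their sequences are left out here.
Cyp1a1: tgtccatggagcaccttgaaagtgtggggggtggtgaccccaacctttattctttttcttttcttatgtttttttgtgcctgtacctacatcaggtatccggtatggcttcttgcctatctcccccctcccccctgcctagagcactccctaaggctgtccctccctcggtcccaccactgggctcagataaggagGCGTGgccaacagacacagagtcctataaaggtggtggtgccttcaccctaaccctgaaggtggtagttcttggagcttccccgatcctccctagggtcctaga
Cyp1b1: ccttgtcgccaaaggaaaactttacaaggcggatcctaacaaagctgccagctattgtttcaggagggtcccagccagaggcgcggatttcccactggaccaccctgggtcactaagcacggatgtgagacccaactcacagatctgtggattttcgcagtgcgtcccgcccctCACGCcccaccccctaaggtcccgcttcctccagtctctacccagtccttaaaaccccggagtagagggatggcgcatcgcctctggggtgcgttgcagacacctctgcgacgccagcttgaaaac
Slc34a2: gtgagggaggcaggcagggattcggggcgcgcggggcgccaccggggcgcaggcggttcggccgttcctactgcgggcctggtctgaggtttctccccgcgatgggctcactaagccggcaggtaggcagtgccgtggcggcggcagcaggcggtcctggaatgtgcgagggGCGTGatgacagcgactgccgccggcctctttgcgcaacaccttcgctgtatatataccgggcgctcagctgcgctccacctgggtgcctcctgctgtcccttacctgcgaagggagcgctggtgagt
Ecel1: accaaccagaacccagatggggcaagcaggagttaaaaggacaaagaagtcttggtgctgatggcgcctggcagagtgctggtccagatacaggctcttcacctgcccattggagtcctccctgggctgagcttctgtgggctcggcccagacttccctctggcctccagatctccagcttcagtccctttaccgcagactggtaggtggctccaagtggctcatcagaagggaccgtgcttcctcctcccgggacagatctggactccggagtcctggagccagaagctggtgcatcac
The letters were present on either strand in 52.8% of 424 promoter entries of genes that rose, 47.2% of 591 entries of genes that fell, 42.9% of 14898 entries of all measured genes and 32.4% of 32851 entries in the whole table. These shares are descriptions, since a match need not be a binding site and the window holds no distal elements.

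Tuba8, Tnfrsf19 and Tnfaip2 were among the next largest rises, and Tnfaip2 is on the AhR target list. Tuba8, an alpha-tubulin, read 10.24, 10.53 and 10.60 under TCDD and 6.72, 7.35 and 7.82 under corn oil, a change of 3.16 ± 0.29 (SE, adjusted p = 4.20e-04), and was also called in wild-type liver, where its means were 7.54 with corn oil and 9.85 with TCDD. Tnfrsf19, a receptor of the TNF receptor family, read 9.58, 9.96 and 9.62 against 6.68, 6.51 and 7.00, a change of 2.99 ± 0.20 (SE, adjusted p = 6.54e-05). Tnfaip2, named for its induction by TNF, read 11.69, 11.87 and 12.10 against 9.22, 9.11 and 8.47, a change of 2.95 ± 0.20 (SE, adjusted p = 6.54e-05). In each, every treated array lay far above every control array. Meig1, a gene of spermatogenesis, rose by 2.77 ± 0.48 (SE, adjusted p = 0.0113) from a low level of 4.84, 4.86 and 5.61. Igfbp1, a binding protein of insulin-like growth factors secreted by liver, was near-equal in the 3 treated arrays (12.54, 12.46 and 12.53) and widely spread in the controls (10.44, 8.48 and 10.64), with a change of 2.66 ± 0.60 (SE, adjusted p = 0.032). Igfbp1 lost the call without corn oil replicate 2 or any single TCDD array (adjusted p 0.0626 to 0.0991).

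The largest falls were led by Nrg4, an EGF-family ligand that signals through ERBB4. Its levels were 9.16, 10.35 and 9.88 in the knockout corn oil arrays and 6.69, 7.38 and 6.62 in the knockout TCDD arrays, a change of -2.90 ± 0.41 (SE, adjusted p = 0.00446), with wild-type means of 7.71 with corn oil and 7.35 with TCDD. Fkbp5, a co-chaperone of the glucocorticoid receptor, read 10.63, 10.78 and 9.50 with corn oil and 7.71, 8.09 and 7.52 with TCDD, a change of -2.53 ± 0.37 (SE, adjusted p = 0.0049). Slc43a1, a transporter of large neutral amino acids, read 10.20, 9.81 and 9.03 with corn oil and 7.39, 7.60 and 7.61 with TCDD, a change of -2.15 ± 0.25 (SE, adjusted p = 0.00153). In all 3 the knockout corn oil arrays were the high group and the knockout TCDD arrays lay near or below the wild-type means. Knockout corn oil was the highest group mean for 737 of the 787 falls. Mfsd2a, which carries lysophosphatidylcholine with omega-3 fatty acids, read 11.42, 11.13 and 10.85 with corn oil and 9.22, 9.32 and 7.36 with TCDD, a change of -2.50 ± 0.46 (SE, adjusted p = 0.0143), and TCDD replicate 3 was the lowest array. Plk3, a stress-responsive polo-like kinase, had a change of -2.06 ± 0.36 (SE, adjusted p = 0.0118), and Per1, a repressor of the circadian clock, one of -1.81 ± 0.31 (SE, adjusted p = 0.0112).

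Pfkfb2, which makes and degrades the glycolytic regulator fructose-2,6-bisphosphate, read 9.62, 9.68 and 9.17 with corn oil and 7.86, 8.02 and 7.93 with TCDD, a change of -1.55 ± 0.17 (SE, adjusted p = 0.00125). The 3 treated arrays were close to each other and lay below every wild-type array. Cers6, a ceramide synthase, changed by -1.61 ± 0.40 (SE, adjusted p = 0.0472), St3gal5, which makes the ganglioside GM3, by -1.60 ± 0.30 (SE, adjusted p = 0.0156), and Inhbe, the activin E subunit, by -1.59 ± 0.38 (SE, adjusted p = 0.0391). Amigo2, an adhesion protein, changed by -1.54 ± 0.35 (SE, adjusted p = 0.0335) and D10Wsu102e by -1.65 ± 0.38 (SE, adjusted p = 0.0342). Their calls depended on single arrays. Cers6 and Inhbe lost the call without corn oil replicate 1 or 2 or TCDD replicate 1 or 3 (adjusted p 0.104 to 0.152), and St3gal5 lost the call without corn oil replicate 2 or TCDD replicate 3 (adjusted p 0.0583 to 0.0623). Amigo2 and D10Wsu102e lost the call without corn oil replicate 1 or 2 or any single TCDD array (adjusted p 0.0545 to 0.117). In D10Wsu102e and Amigo2, corn oil replicates 1 and 2 were high and replicate 3 lay close above the highest TCDD array.

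**Figure D3:**
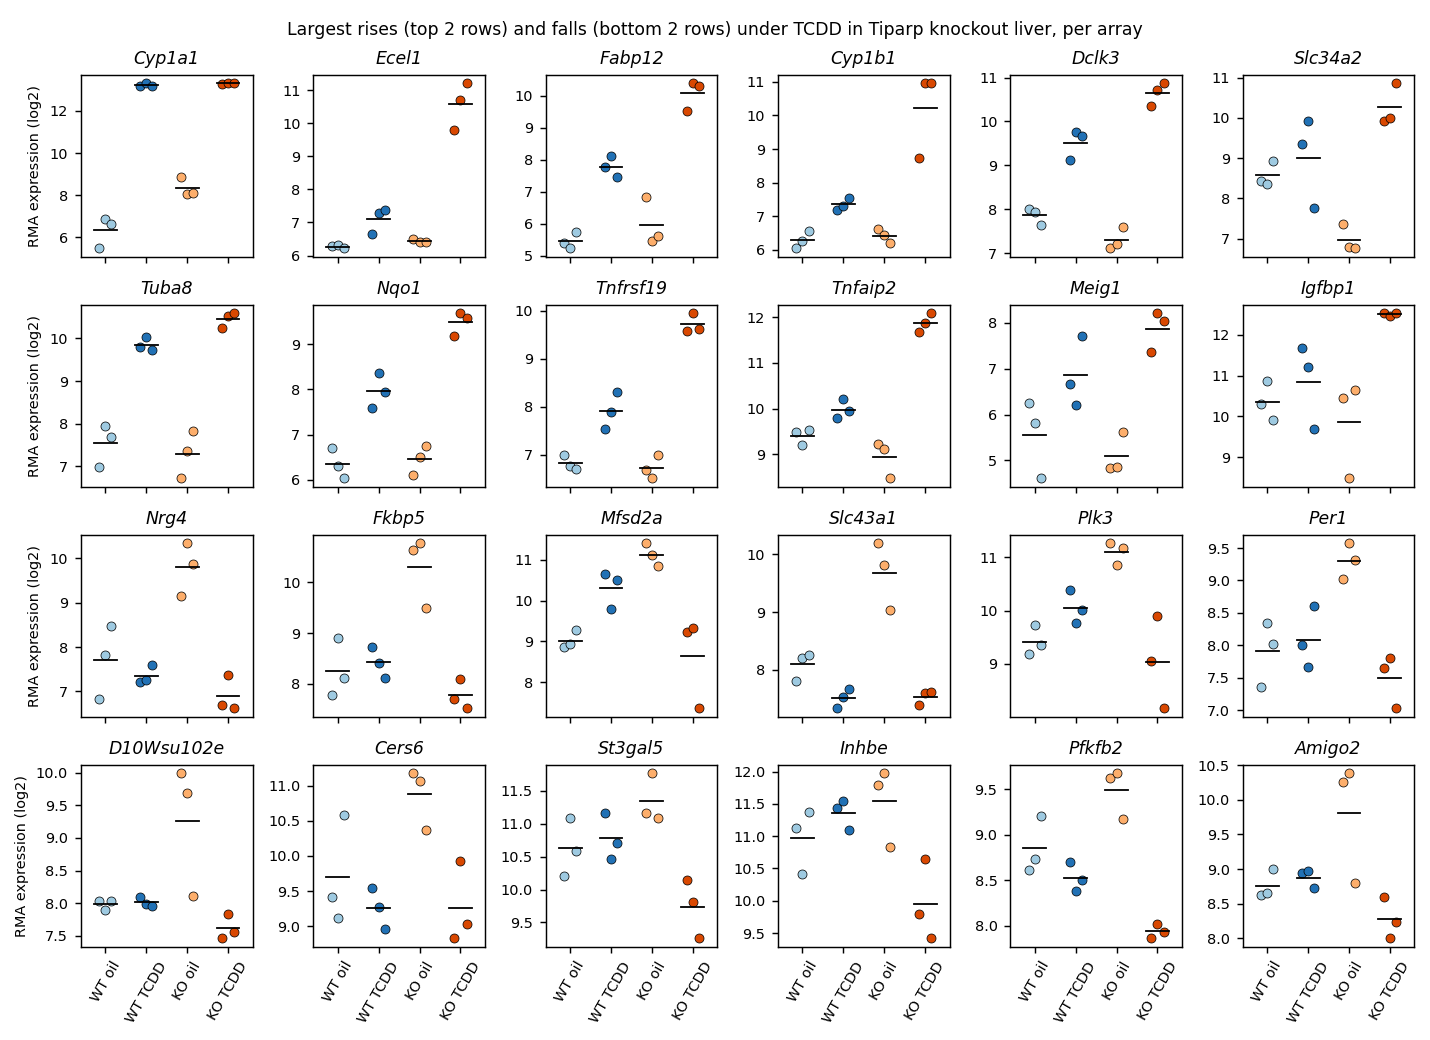
RMA expression (log2) of the 12 genes with the largest called rises and the 12 with the largest called falls under TCDD in knockout liver. Points are single arrays of wild-type (WT) and knockout (KO) livers with corn oil or TCDD, and lines are group means. Knockout arrays do not overlap in any panel, a condition for inclusion.

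Of 15 measured AhR target genes, the disrupted gene Tiparp included, 10 rose and none fell, against 2.61% and 3.87% of all genes. Their median change was 1.78, against -0.04 over all genes. Ahrr, the repressor that competes for ARNT, read 7.63, 8.97 and 9.01 under TCDD and 6.00, 6.02 and 6.03 under corn oil, a change of 2.52 ± 0.30 (SE, adjusted p = 0.00153). As with Cyp1b1, TCDD replicate 1 was the lowest treated array. Cyp1a2, the constitutive hepatic member of the family, was already at 12.64, 12.85 and 13.20 with corn oil and rose to 13.67, 13.77 and 13.79, a change of 0.85 ± 0.14 (SE, adjusted p = 0.00979). Ugdh, which makes the UDP-glucuronic acid used in conjugation, read 12.84, 12.76 and 12.89 against 11.48, 11.44 and 11.54, a change of 1.34 ± 0.08 (SE, adjusted p = 6.29e-05). Pmm1, a phosphomannomutase, had 8.66 in each of the 3 treated arrays against 6.85, 6.93 and 6.87, a change of 1.78 ± 0.08 (SE, adjusted p = 1.24e-05), the lowest adjusted p among the named genes. Fmo2, a flavin monooxygenase, changed by 2.48 ± 0.55 (SE, adjusted p = 0.0298). Fmo2 lost the call without corn oil replicate 1 or 2 or any single TCDD array (adjusted p 0.0567 to 0.0935). Aldh3a1, an aldehyde dehydrogenase induced by AhR ligands in other tissues, was at 0.10 and not called, as were Cyp2s1 at 0.15, Lrat at 0.94 and the xanthine dehydrogenase gene Xdh at 0.08. Lrat was called without corn oil replicate 3 (adjusted p = 0.0417), and Xdh was at 1.06 with wild-type corn oil as the control (adjusted p = 0.0209). In the receptor complex 1 of 14 genes rose, Nrip1, a corepressor of nuclear receptors, at 0.69 ± 0.12 (SE, adjusted p = 0.0132).

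NRF2 is the transcription factor of the antioxidant response, and its gene Nfe2l2 read 12.60, 12.71 and 12.69 under TCDD and 10.45, 10.86 and 10.87 under corn oil, a change of 1.94 ± 0.11 (SE, adjusted p = 5.87e-05). Of 19 measured NRF2 target and pathway genes, 6 rose and 1 fell, against 2.61% and 3.87% of all genes, with a median of 0.22. The fall, named after its value was seen, was that of the aldo-keto reductase gene Akr1b8 at -0.70 ± 0.11 (SE, adjusted p = 0.00588). Nqo1, a quinone reductase that like Nfe2l2 belongs to both the AhR and the NRF2 list, read 9.18, 9.70 and 9.58 against 6.11, 6.50 and 6.74, a change of 3.04 ± 0.25 (SE, adjusted p = 2.12e-04). Gclc, which catalyses the limiting step of glutathione synthesis, read 12.58, 12.42 and 12.87 against 9.91, 10.45 and 10.74, a change of 2.26 ± 0.28 (SE, adjusted p = 0.00218). Its knockout corn oil arrays lay below the wild-type corn oil mean of 11.68. Srxn1, which restores oxidised peroxiredoxins, changed by 1.97 ± 0.12 (SE, adjusted p = 5.87e-05). The glutathione S-transferases gave 0 calls among 19 genes, where 6.48% of all genes were called. The UDP-glucuronosyltransferases gave 1 among 5, Ugt2b35 at 2.03 ± 0.36 (SE, adjusted p = 0.0126). Counts this small do not set either family apart from all genes. Sult1a1, a phenol sulfotransferase, read 11.84, 12.21 and 11.84 with corn oil and 10.90, 10.78 and 10.74 with TCDD, a change of -1.16 ± 0.16 (SE, adjusted p = 0.00449). The aldehyde dehydrogenase gene Aldh3b1 had a change of 1.15 ± 0.25 (SE, adjusted p = 0.028). Ugt2b35 lost the call without TCDD replicate 3 (adjusted p 0.0554), and Aldh3b1 lost the call without corn oil replicate 1 or 2 or TCDD replicate 2 or 3 (adjusted p 0.0608 to 0.102).

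Of 22 measured lipid droplet and lipolysis genes 3 rose and 2 fell, against 2.61% and 3.87% of all genes (median 0.09). Abhd5, the co-activator of the triglyceride lipase ATGL, read 10.72, 10.74 and 11.10 under TCDD and 9.58, 9.19 and 9.16 under corn oil, a change of 1.54 ± 0.20 (SE, adjusted p = 0.00265). Pnpla2, which encodes ATGL itself, went the other way, with 9.57, 9.73 and 9.35 against 10.50, 10.30 and 10.19, a change of -0.78 ± 0.13 (SE, adjusted p = 0.0114). Neither gene's knockout arrays overlapped, as held for all 516 called rises and 786 of the 787 called falls. Mgll, which completes lipolysis by cleaving monoglycerides, read 11.55, 11.56 and 11.47 against 9.84, 10.54 and 10.53 and changed by 1.22 ± 0.16 (SE, adjusted p = 0.0034). Hilpda, a protein that inhibits ATGL, changed by 1.51 ± 0.32 (SE, adjusted p = 0.0271). Of 18 lipid uptake and transport genes 3 rose and 1 fell, and beside Fabp12 and Mfsd2a these were the HDL receptor gene Scarb1 at 0.66 ± 0.12 (SE, adjusted p = 0.0159) and Fabp2 at 0.58 ± 0.12 (SE, adjusted p = 0.0249). Hilpda lost the call without corn oil replicate 2 or 3 or TCDD replicate 1 (adjusted p 0.0526 to 0.0784), and Scarb1 lost the call without TCDD replicate 3 (adjusted p 0.0638). Fabp2 lost the call without corn oil replicate 1 or TCDD replicate 2 or 3 (adjusted p 0.0597 to 0.0905). The uptake list had 1 rise without TCDD replicate 3.

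In fatty acid synthesis 2 of 21 genes rose and none fell, against 2.61% and 3.87% of all genes. Acacb, the mitochondrial acetyl-CoA carboxylase whose product restrains fatty acid oxidation, read 10.64, 10.62 and 10.16 with TCDD and 9.44, 9.15 and 9.63 with corn oil, a change of 1.07 ± 0.15 (SE, adjusted p = 0.0042). The wild-type means were 10.26 with corn oil and 9.86 with TCDD, a change of -0.40 that was not called. The elongase gene Elovl5 changed by 0.77 ± 0.15 (SE, adjusted p = 0.017). Of 21 genes of triglyceride and VLDL assembly, Chka, a choline kinase, changed by 1.90 ± 0.43 (SE, adjusted p = 0.0313) and Lpin2, a phosphatidate phosphatase, by 1.66 ± 0.34 (SE, adjusted p = 0.0224), and 1 fell. That gene, Apoa5, an apolipoprotein that promotes clearance of plasma triglycerides, read 12.52, 12.28 and 12.06 against 13.03, 12.91 and 12.91, a change of -0.66 ± 0.12 (SE, adjusted p = 0.0136). Elovl5 lost the call without TCDD replicate 1 (adjusted p 0.0602), and Chka lost the call without corn oil replicate 2 or 3 or TCDD replicate 1 or 3 (adjusted p 0.0613 to 0.111). Lpin2 lost the call without corn oil replicate 2 or any single TCDD array (adjusted p 0.0514 to 0.0692). The triglyceride list had no rise without corn oil replicate 2, TCDD replicate 1 or TCDD replicate 3. None of 24 genes of fatty acid oxidation and ketogenesis and none of 19 of cholesterol synthesis was called, with medians of 0.01 and -0.10. The oxidation list had 1 rise without TCDD replicate 2 or 3, and the cholesterol list 1 fall without corn oil replicate 1. Values in the oxidation list ran from -2.26 to 2.68.

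Bile acid genes gave 3 rises and no fall among 28, against 2.61% and 3.87% of all genes. The counts were 2 rises and 3 falls without corn oil replicate 1, 3 rises and 1 fall without corn oil replicate 3, and 1 rise and no fall without TCDD replicate 3. Nr5a2, the nuclear receptor LRH-1 that activates bile acid synthesis genes, read 11.08, 11.25 and 11.32 under TCDD and 10.27, 10.45 and 10.59 under corn oil, a change of 0.78 ± 0.10 (SE, adjusted p = 0.00272). Klb, the co-receptor for FGF15 and FGF21 in liver, read 10.58, 11.23 and 10.82 against 7.18, 8.18 and 9.31, a change of 2.65 ± 0.48 (SE, adjusted p = 0.0137). Its control arrays were widely spread, with replicate 1 the lowest. Cyp8b1, the sterol hydroxylase needed for cholic acid, changed by 1.23 ± 0.24 (SE, adjusted p = 0.0199), and its knockout corn oil mean of 10.56 was below both wild-type means (11.71 with corn oil and 11.55 with TCDD). Klb lost the call without TCDD replicate 3 (adjusted p 0.0509), and Cyp8b1 lost the call without corn oil replicate 1 or 2 or TCDD replicate 1 or 3 (adjusted p 0.0576 to 0.0702).

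Of 19 gluconeogenesis genes 2 rose and 2 fell, against 2.61% and 3.87% of all genes (median -0.14). The list had no call without corn oil replicate 2, TCDD replicate 1 or TCDD replicate 3, it had 3 rises and no fall without corn oil replicate 3, and it had no rise and 3 falls without TCDD replicate 2. Beside Igfbp1, which is on this list, G6pc, the glucose-6-phosphatase that releases glucose, changed by 1.81 ± 0.39 (SE, adjusted p = 0.0271). Its treated arrays read 13.52, 13.40 and 13.39 and its controls 10.98, 11.11 and 12.80, with wild-type means of 13.19 with corn oil and 13.15 with TCDD. Corn oil replicates 1 and 2 were thus the low arrays and the treated arrays lay near the wild-type means. Slc37a4, the transporter that brings glucose-6-phosphate to that enzyme, changed by -0.83 ± 0.19 (SE, adjusted p = 0.0332), and the aspartate aminotransferase gene Got1 by -0.70 ± 0.16 (SE, adjusted p = 0.036). Gckr, the regulatory protein of glucokinase, changed by 0.67 ± 0.12 (SE, adjusted p = 0.0112) and was the rise among 20 glycolysis genes, where Pfkfb2 was the fall. Of 17 glycogen genes, Ppp1r3c, which targets a phosphatase to glycogen, changed by 1.74 ± 0.33 (SE, adjusted p = 0.0176) and Gys1, the muscle-type glycogen synthase, by -0.55 ± 0.11 (SE, adjusted p = 0.0176). G6pc lost the call without corn oil replicate 1 or 2 or any single TCDD array (adjusted p 0.0548 to 0.0942), and Slc37a4 lost the call without corn oil replicate 2 or 3 or TCDD replicate 1 or 3 (adjusted p 0.0655 to 0.106). Got1 lost the call without any single corn oil array or TCDD replicate 1 or 3 (adjusted p 0.0562 to 0.125), and Gckr lost the call without TCDD replicate 3 (adjusted p 0.0518). Ppp1r3c lost the call without corn oil replicate 1 or TCDD replicate 1 or 3 (adjusted p 0.0555 to 0.0731), and Gys1 lost the call without corn oil replicate 1 or 2 or TCDD replicate 3 (adjusted p 0.0522 to 0.0677). With wild-type corn oil as the control the change of Got1 was 0.09 and that of Ppp1r3c -0.38, so both changed sign.

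TIPARP uses NAD as its substrate. Among 24 genes of NAD and tryptophan metabolism none rose and 2 fell, Nampt, which makes nicotinamide mononucleotide, at -1.31 ± 0.31 (SE, adjusted p = 0.0389) and Nnmt, which methylates nicotinamide, at -0.83 ± 0.18 (SE, adjusted p = 0.0278). Nampt and Nnmt lost the call without corn oil replicate 1 or 2 or TCDD replicate 1 or 3 (adjusted p 0.0652 to 0.129). The list had 2 rises and 3 falls without corn oil replicate 3. None of 16 measured members of the PARP family, Tiparp included, was called (median -0.03), and none of 20 haem genes (-0.09). Without corn oil replicate 3 the haem list had 2 rises and 4 falls and the PARP family 1 fall, and the haem list had 1 fall without TCDD replicate 2. Of 21 iron genes 2 rose and 3 fell, against 2.61% and 3.87% of all genes, and none rose without TCDD replicate 1 or 3. Slc39a14, a zinc and iron importer, read 12.47, 12.17 and 11.99 with corn oil and 10.91, 11.29 and 10.72 with TCDD, a change of -1.24 ± 0.20 (SE, adjusted p = 0.0079). Bmp2, an inducer of hepcidin made by liver endothelium, read 8.16, 7.68 and 8.06 with corn oil and 6.77, 7.12 and 6.89 with TCDD, a change of -1.04 ± 0.13 (SE, adjusted p = 0.00249). Ireb2, the iron regulatory protein IRP2, changed by -0.83 ± 0.12 (SE, adjusted p = 0.00478). All 3 kept the call whichever knockout array was left out. Hjv, the hemojuvelin co-receptor of BMP signals, changed by 1.48 ± 0.28 (SE, adjusted p = 0.0155). Hjv lost the call without TCDD replicate 1 or 3 (adjusted p 0.0535 to 0.0675). Its change was -0.04 with wild-type corn oil as the control.

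Of 25 glucocorticoid-responsive genes 3 rose and 2 fell, against 2.61% and 3.87% of all genes, and 5 rose without corn oil replicate 3. The falls were those of Fkbp5 and Per1, and the rises included Igfbp1. Gadd45b, a stress-inducible growth arrest gene, read 9.71, 10.12 and 9.59 under TCDD and 7.45, 7.28 and 6.84 under corn oil, a change of 2.62 ± 0.20 (SE, adjusted p = 1.77e-04). In the clock list 1 of 18 genes rose and 1 fell, with a median of -0.38 and values from -2.06 to 1.57. The clock median was -0.63 without corn oil replicate 1 and -0.23 without corn oil replicate 3. Rora, an activator of the clock, changed by 1.11 ± 0.20 (SE, adjusted p = 0.0143). In the growth hormone and IGF1 axis Stat5b, which carries the growth hormone signal, changed by 1.13 ± 0.20 (SE, adjusted p = 0.0126). Rora lost the call without TCDD replicate 1 or 3 (adjusted p 0.0533 to 0.0638), and Stat5b lost the call without TCDD replicate 3 (adjusted p 0.0578). None of 15 male-biased liver genes was called. Of 12 female-biased genes 1 rose, Abcd2, a peroxisomal fatty acid transporter, at 8.73, 9.77 and 8.84 with TCDD and 6.43, 6.70 and 7.32 with corn oil, a change of 2.30 ± 0.39 (SE, adjusted p = 0.0109).

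The EGF receptor system, to which Nrg4 belongs, showed 3 rises and 1 fall among 16 genes, against 2.61% and 3.87% of all genes. Nrg1, another neuregulin ligand, read 8.05, 9.41 and 9.45 under TCDD and 6.78, 6.75 and 6.97 under corn oil, a change of 2.14 ± 0.31 (SE, adjusted p = 0.00503). Erbb3, a receptor for neuregulins on hepatocytes, read 11.98, 11.98 and 12.19 against 10.59, 10.95 and 11.06, a change of 1.18 ± 0.13 (SE, adjusted p = 0.00113). Nrg1 and Erbb3 were higher and Nrg4 lower in every knockout TCDD array, a separation shared by all 516 called rises and 786 of the 787 called falls. Ereg, the ligand epiregulin, read 6.78, 7.94 and 7.86 against 6.70, 6.14 and 6.31, a change of 1.14 ± 0.28 (SE, adjusted p = 0.042), with TCDD replicate 1 barely above the highest control. Ereg lost the call without any single corn oil array or TCDD replicate 2 or 3 (adjusted p 0.0541 to 0.14).

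In the BCL2 family 2 of 18 genes rose and 2 fell, against 2.61% and 3.87% of all genes, with a median of -0.06. The 14 members not called ran from -0.33 to 0.24. Both rises were BH3-only promoters of apoptosis. Bcl2l11, which encodes BIM, read 8.76, 9.25 and 9.75 under TCDD and 6.57, 7.12 and 6.91 under corn oil, a change of 2.39 ± 0.22 (SE, adjusted p = 4.42e-04). Bmf read 8.83, 9.37 and 8.88 against 7.47, 7.44 and 7.76, a change of 1.47 ± 0.23 (SE, adjusted p = 0.00697). The 2 that fell were anti-apoptotic, Bcl2l1, which encodes BCL-XL, at -0.76 ± 0.15 (SE, adjusted p = 0.0188) and Mcl1 at -0.46 ± 0.10 (SE, adjusted p = 0.0279). Tnfrsf10b, the receptor for the death ligand TRAIL, read 7.99, 8.61 and 8.58 against 6.65, 6.31 and 6.02, a change of 2.07 ± 0.27 (SE, adjusted p = 0.00295), and was the rise among 21 p53 target genes, where Plk3 was the fall. Its wild-type means were 6.48 with corn oil and 6.58 with TCDD. Of 29 genes of the ER and integrated stress response 1 was called, the kinase PERK gene Eif2ak3 at -0.80 ± 0.17 (SE, adjusted p = 0.0278), and the median of the list was -0.24. Without corn oil replicate 3 that list had 10 falls and 1 rise with a median of -0.415. It had 6 falls in a fit of the 14860 genes, with the probe sets of a gene averaged. That fit left out probe sets without a single symbol, so its adjustment also covered fewer tests. Bcl2l1 and Eif2ak3 lost the call without corn oil replicate 1 or 2 or TCDD replicate 1 or 3 (adjusted p 0.0515 to 0.0968), and Mcl1 lost the call without any single corn oil array or TCDD replicate 1 or 3 (adjusted p 0.0507 to 0.105).

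Among 28 cyclins and CDK inhibitors 1 rose and 3 fell, against 2.61% and 3.87% of all genes, with a median of -0.10. Ccne1, the G1/S cyclin E1, read 7.52, 7.20 and 6.86 with corn oil and 5.69, 6.12 and 5.99 with TCDD, a change of -1.26 ± 0.15 (SE, adjusted p = 0.0021). Cdkn1b, the inhibitor p27, read 9.40, 9.67 and 9.79 with TCDD against 8.73, 8.71 and 8.67, a rise of 0.92 ± 0.12 (SE, adjusted p = 0.00265). Both kept the call whichever knockout array was left out, and 1 fall was left in the list without corn oil replicate 1, TCDD replicate 1 or TCDD replicate 3. Ccnd1, cyclin D1, changed by -1.07 ± 0.23 (SE, adjusted p = 0.0279) and Ccnt1, a cyclin of transcription elongation, by -0.58 ± 0.12 (SE, adjusted p = 0.0248). Of 32 genes of DNA replication and mitosis only Mcm4, a helicase subunit, was called, at -0.87 ± 0.16 (SE, adjusted p = 0.0145). Ccnd1 lost the call without corn oil replicate 1 or TCDD replicate 1 or 3 (adjusted p 0.0831 to 0.102), and Ccnt1 lost the call without corn oil replicate 1 or 2 or TCDD replicate 1 or 3 (adjusted p 0.0529 to 0.0899). Mcm4 lost the call without TCDD replicate 1 (adjusted p 0.0545). The change of Ccnd1 was 0.18 with wild-type corn oil as the control.

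Nuclear receptors were called in 1 direction, with 6 rises and no fall among 41 genes against 2.61% and 3.87% of all genes, and there were 3 rises without TCDD replicate 3 and 1 fall without corn oil replicate 1 or TCDD replicate 2. Esrrg, an orphan receptor of energy metabolism, read 7.42, 7.92 and 7.82 under TCDD and 6.07, 5.91 and 6.33 under corn oil, a change of 1.62 ± 0.19 (SE, adjusted p = 0.00175). Nr2c1, the testicular receptor TR2, read 9.87, 9.71 and 9.98 against 8.38, 8.46 and 8.51, a change of 1.40 ± 0.14 (SE, adjusted p = 7.62e-04). Ppard, a fatty acid receptor, read 10.06, 8.98 and 9.66 against 8.36, 8.39 and 8.41, a change of 1.18 ± 0.22 (SE, adjusted p = 0.0171), and its TCDD replicate 2 was the lowest treated array. Rxrg, a retinoid X receptor, changed by 1.11 ± 0.23 (SE, adjusted p = 0.0244), and the others were Rora and Nr5a2. The median of the family, 0.05, was close to that of all genes. In all 6, knockout corn oil was the lowest of the 4 group means, as it was for 392 of the 516 called rises. Over all 23332 probe sets it was the lowest for 5163. Choosing genes that rose in the knockout favours this position. With wild-type corn oil as the control, Esrrg (1.54), Nr2c1 (1.17) and Nr5a2 (0.66) were still called. Ppard (0.36), Rxrg (0.52) and Rora (0.36) were not. Ppard lost the call without corn oil replicate 2 or TCDD replicate 3 (adjusted p 0.0564 to 0.0687), and Rxrg lost the call without corn oil replicate 1 or 2 or TCDD replicate 1 or 3 (adjusted p 0.0599 to 0.0903). Rora lost the call without TCDD replicate 1 or 3 (adjusted p 0.0533 to 0.0638). In retinoid metabolism none of 32 genes rose and 2 retinol dehydrogenase genes, Rdh13 (-0.47) and Rdh1 (-0.46), were called lower. Rdh13 lost the call without corn oil replicate 1 or 2 or TCDD replicate 1 or 3 (adjusted p 0.0972 to 0.129), and Rdh1 lost the call without any single corn oil array or any single TCDD array (adjusted p 0.0606 to 0.133). Klf10, a zinc finger factor of the Kruppel-like family, was the call among 15 such genes and read 8.65, 8.05 and 8.41 with corn oil and 7.27, 7.37 and 7.32 with TCDD, a change of -1.05 ± 0.14 (SE, adjusted p = 0.003), whereas the change was 0.06 with wild-type corn oil as the control.

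Solute carriers gave 10 rises and 14 falls among 282 genes, against 2.61% and 3.87% of all genes (median -0.01). The counts were 14 and 24 without corn oil replicate 3, 6 and 8 without TCDD replicate 3, 7 and 8 without corn oil replicate 2 or TCDD replicate 1, and 14 and 10 after quantile normalization again. The amino acid transporters gave 2 rises and 3 falls among 52. Slc6a6, the taurine transporter, read 11.62, 11.79 and 11.95 under TCDD and 9.35, 9.89 and 10.53 under corn oil, a change of 1.86 ± 0.29 (SE, adjusted p = 0.00647). Slc7a5, the light chain of the leucine transporter LAT1, changed by -0.65 ± 0.11 (SE, adjusted p = 0.012), in the same direction as Slc43a1. Of 39 mitochondrial carriers 4 rose and 2 fell, with 2 rises without TCDD replicate 1 or 3 and 4 falls without corn oil replicate 3. The rises included Slc25a28, the iron carrier mitoferrin-2, at 0.92 ± 0.10 (SE, adjusted p = 0.00113) and Slc25a46, a protein of mitochondrial dynamics, at 0.85 ± 0.10 (SE, adjusted p = 0.00154), which was also called in wild-type liver. Slc25a45 (1.11) and Slc25a42, which carries coenzyme A (0.82), were the other rises. In the zinc and phosphate families, where Slc34a2 was the rise, the zinc exporters Slc30a5 (-1.05) and Slc30a7 (-0.94) fell beside Slc39a14. Slc46a3, a lysosomal carrier known as a TCDD-inducible gene in mouse liver, changed by 1.68 ± 0.40 (SE, adjusted p = 0.0391), and Slc6a12, a betaine transporter, by 0.64 ± 0.13 (SE, adjusted p = 0.0248). Slc25a45 lost the call without TCDD replicate 1 or 3 (adjusted p 0.0518 to 0.0724), and Slc25a42 lost the call without corn oil replicate 1 or 2 or TCDD replicate 1 or 3 (adjusted p 0.109 to 0.134). Slc30a5 and Slc6a12 lost the call without corn oil replicate 2 or TCDD replicate 1 or 3 (adjusted p 0.0583 to 0.0947), and Slc30a7 lost the call without corn oil replicate 1 or 2 or any single TCDD array (adjusted p 0.065 to 0.142). Slc46a3 lost the call without corn oil replicate 2 or any single TCDD array (adjusted p 0.0599 to 0.121).

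Of 60 chaperone genes 3 rose and 1 fell, against 2.61% and 3.87% of all genes, and 3 rose and 8 fell without corn oil replicate 3. With all arrays the rises were those of Dnajb4 (0.60), Dnajb3 (0.67) and Hspa2 (0.76), and the fall was that of Hspb8, a small heat shock protein, at -0.64 ± 0.11 (SE, adjusted p = 0.0105). Of 46 collagens and laminins 3 rose and none fell, against the same shares of all genes. The rises were those of Col15a1 (0.64), Col4a3 (0.37) and Col1a1 (0.35). None rose without corn oil replicate 1, corn oil replicate 2 or TCDD replicate 3. Cdh2, N-cadherin of hepatocyte junctions, read 11.53, 11.79 and 11.91 with TCDD and 10.28, 10.42 and 11.09 with corn oil, a rise of 1.15 ± 0.19 (SE, adjusted p = 0.00885), the call among the adhesion genes, where 5 rose and 3 fell without corn oil replicate 3. Dusp7, a phosphatase of ERK kinases, fell from 9.51, 9.68 and 9.32 to 8.19, 8.42 and 8.38, a change of -1.17 ± 0.14 (SE, adjusted p = 0.00194), and Dusp4 was called higher (0.42). Single calls were also made for Cldn3 (-0.49), Adam12 (0.75), Abcc1 (-0.37) and the P450 gene Cyp3a13 (-0.50). Hspa2 lost the call without corn oil replicate 1 or 3 or any single TCDD array (adjusted p 0.0504 to 0.135), and Col15a1 lost the call without corn oil replicate 1 or 2 or TCDD replicate 1 or 3 (adjusted p 0.0556 to 0.0784). Col4a3 lost the call without corn oil replicate 1 or 2 or TCDD replicate 3 (adjusted p 0.0574 to 0.0789), and Col1a1 lost the call without any single corn oil array or TCDD replicate 1 or 3 (adjusted p 0.0661 to 0.153). Dusp4 lost the call without any single corn oil array or any single TCDD array (adjusted p 0.065 to 0.144), and Cldn3 lost the call without corn oil replicate 2 or 3 or any single TCDD array (adjusted p 0.0557 to 0.121). Adam12 lost the call without any single corn oil array or TCDD replicate 2 or 3 (adjusted p 0.0649 to 0.115), and Abcc1 lost the call without corn oil replicate 1 or 2 or any single TCDD array (adjusted p 0.0676 to 0.113). Cyp3a13 lost the call without corn oil replicate 2 or TCDD replicate 1 or 3 (adjusted p 0.0677 to 0.0831). No member was called among 36 proteasome subunits, 60 genes of the respiratory chain and ATP synthase, 19 ribosomal protein genes, 25 acute phase genes or 40 cytokines and chemokines. Their medians were -0.12, -0.11, -0.10, -0.23 and -0.16. Without corn oil replicate 3 there were 3 falls among the acute phase genes and 1 among the cytokines, and without TCDD replicate 1 there was 1 rise among the cytokines. Without corn oil replicate 1 there was 1 fall each in the respiratory chain and ribosomal lists.

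**Figure D4:**
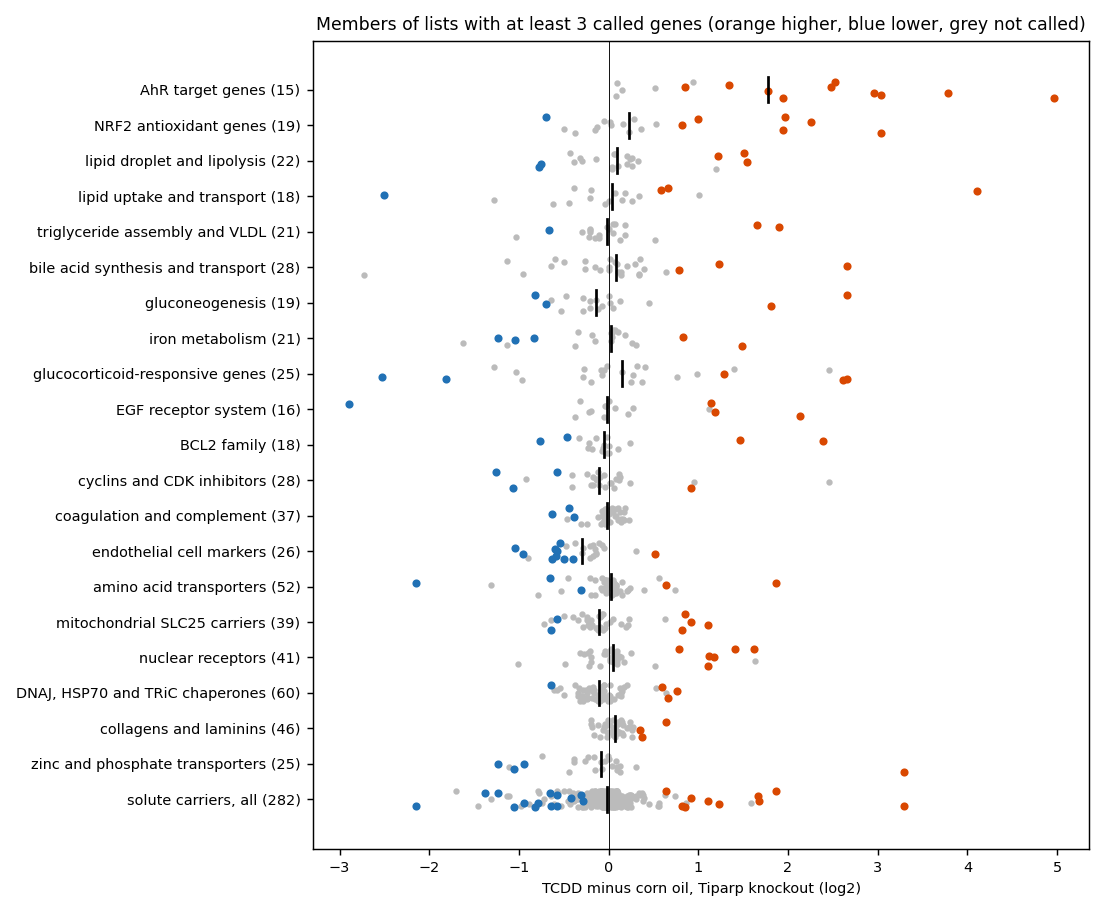
Change under TCDD in knockout liver (log2) of each measured member of the lists and families with at least 3 called genes, with the number measured in brackets. Orange and blue points were called higher and lower, grey points were not called, and the black bar is the list's median. The AhR target genes have a median of 1.78 and the endothelial cell markers one of -0.29.

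Of 26 endothelial markers 9 fell and 1 rose, against 3.87% and 2.61% of all genes, with a median of -0.29, and 13 had all 3 TCDD arrays below all 3 corn oil arrays, where 16.9% of all genes did. Gpr182, a receptor of sinusoidal endothelium, read 11.76, 11.41 and 11.68 with corn oil and 10.72, 10.89 and 10.38 with TCDD, a change of -0.95 ± 0.14 (SE, adjusted p = 0.00509). Stab2, a scavenger receptor of the same cells, read 10.26, 10.01 and 10.23 with corn oil and 9.65, 9.53 and 9.54 with TCDD, a change of -0.59 ± 0.09 (SE, adjusted p = 0.0052). The mean level of the 26 markers was 9.08 to 9.22 in knockout corn oil, 8.74 to 8.94 in knockout TCDD, 8.98 to 9.04 in wild-type corn oil and 8.79 to 8.86 in wild-type TCDD arrays, so treated arrays were lower in both genotypes. The count of falls was 4 without TCDD replicate 1, 4 without TCDD replicate 3 and 5 without corn oil replicate 1, and 6 after quantile normalization again. In whole tissue, fewer cells of a type and less RNA per cell cannot be told apart. F8, a clotting factor gene expressed by endothelium, was on both this list and that of 37 coagulation and complement genes, where it fell (-0.63) with the complement genes C4bp (-0.44) and Mbl1 (-0.38). F8 and C4bp lost the call without any single corn oil array or TCDD replicate 1 or 3 (adjusted p 0.0523 to 0.143), and Mbl1 lost the call without any single corn oil array or any single TCDD array (adjusted p 0.052 to 0.0953).

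Of 24 macrophage markers 2 fell and none rose, against 3.87% and 2.61% of all genes, and 4 fell without corn oil replicate 3. With all arrays the falls were those of the scavenger receptor gene Marco at -1.05 ± 0.20 (SE, adjusted p = 0.0164) and Fcer1g, a signalling chain of Fc receptors, at -0.95 ± 0.22 (SE, adjusted p = 0.037). Marco lost the call without TCDD replicate 1 (adjusted p 0.0602), and Fcer1g lost the call without corn oil replicate 1 or 2 or any single TCDD array (adjusted p 0.052 to 0.127). The mean level of the list was 8.63 to 8.76 in knockout corn oil, 8.35 to 8.46 in knockout TCDD, 8.07 to 8.58 in wild-type corn oil and 7.85 to 8.38 in wild-type TCDD arrays. Against wild-type corn oil the changes were 0.08 for Marco and 0.33 for Fcer1g. None of 16 neutrophil markers and none of 12 cholangiocyte markers was called (medians -0.28 and -0.01), but 3 neutrophil markers fell and 1 cholangiocyte marker rose without corn oil replicate 3, and 1 neutrophil marker fell without TCDD replicate 2. Neutrophil markers averaged 6.66 to 6.89 in knockout corn oil and 6.31 to 6.55 in knockout TCDD arrays. Of 16 lymphocyte markers Il7r was called lower (-0.37), and of 26 interferon-stimulated genes Stat2, a signal transducer, was (-0.60). Among 30 stellate cell and matrix genes Col1a1 was called higher (0.35) and Ccn2, a matricellular protein, lower (-1.09). Il7r lost the call without any single corn oil array or any single TCDD array (adjusted p 0.055 to 0.148), and Stat2 lost the call without corn oil replicate 1 or 2 or TCDD replicate 1 or 3 (adjusted p 0.0857 to 0.116). Col1a1 lost the call without any single corn oil array or TCDD replicate 1 or 3 (adjusted p 0.0661 to 0.153), and Ccn2 lost the call without corn oil replicate 1 or 2 or any single TCDD array (adjusted p 0.0501 to 0.0831). Ctrb1, a pancreatic chymotrypsinogen, read 7.31, 7.15 and 7.40 with TCDD and 6.06, 6.19 and 6.33 with corn oil, a rise of 1.09 ± 0.09 (SE, adjusted p = 3.27e-04), and was the call among 14 pancreas and fat markers, which had a median of 0.06. The part of shifts in cell makeup in the gene changes above was not tested.

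Whether the response differed from that of wild-type liver was tested by the difference of the TCDD effects. It was called for 37 of 23332 probe sets (0.159%), 25 with a higher and 12 with a lower effect in the knockout, standing for 28 genes. Ecel1 differed by 3.30 ± 0.43 (SE, adjusted p = 0.0292) and had wild-type means of 6.27 with corn oil and 7.11 with TCDD. Rnf125, a ubiquitin ligase, read 13.44, 12.85 and 13.54 with TCDD and 11.28, 10.64 and 11.37 with corn oil in the knockout and had wild-type means of 13.04 with corn oil and 12.34 with TCDD. The knockout corn oil arrays were the low group and knockout TCDD was near the wild-type level, and the difference of effects was 2.88 ± 0.38 (SE, adjusted p = 0.0292). Tnfaip2 differed by 2.38, Gadd45b by 2.09, Tnfrsf19 by 1.90, Acacb by 1.47, Pmm1 by 1.04 and Ctrb1 by 0.86, with adjusted p from 0.0242 to 0.0449. The lower effects were those of Ccne1 (-1.39), Klf10 (-1.36), Znrd1, an RNA polymerase I subunit gene (-1.27), Slc35a4 (-1.11), Yrdc, of transfer RNA modification (-1.09), and Dda1 (-0.92). In these 6, all called falls in the knockout, knockout corn oil was the highest group mean, as it was for 737 of the 787 called falls. Znrd1 read 9.13, 9.21 and 8.93 with corn oil and 8.04, 8.35 and 8.20 with TCDD in the knockout, and its wild-type means were 8.00 with corn oil and 8.38 with TCDD. Gm7180 also differed (2.06). For TCDD within the knockout, Yrdc lost the call without corn oil replicate 2 or TCDD replicate 1 or 3 (adjusted p 0.0654 to 0.0724). Gm7180 lost that call without corn oil replicate 1 or TCDD replicate 1 or 3 (adjusted p 0.0732 to 0.109). Of 12 fits that each left out 1 array, the difference between genotypes was called in 6 for Pmm1 and 2 for Ctrb1. It was called in 3 to 5 of them for each of the other genes named here. The count of 37 probe sets fell to 0 without wild-type corn oil replicate 2 or 3 (2699 and 3428 at an unadjusted p under 0.05 in limma). It was 546 without knockout corn oil replicate 3. It was 0 with replicate number as a block. For the other genes the test does not show that both genotypes responded alike, and the knockout arrays enter both this test and the comparison within the knockout.

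**Figure D5:**
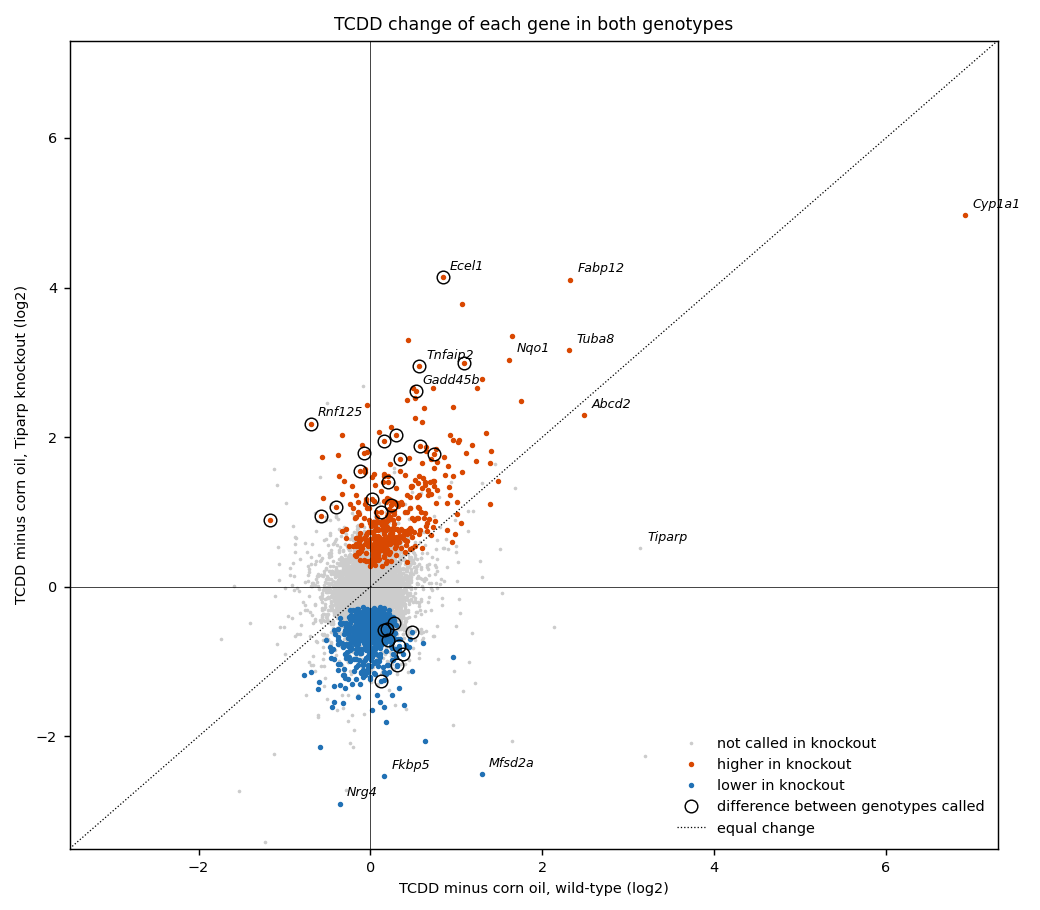
Change under TCDD (log2) of each gene in wild-type liver (horizontal axis) and in Tiparp knockout liver (vertical axis). Orange points rose and blue points fell in the knockout, and circles mark genes whose difference between genotypes was called. Ecel1 has changes of 0.84 and 4.14, and Cyp1a1 of 6.92 and 4.97.

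Side by side, the wild-type changes of the 516 knockout rises had a median of 0.16 and were positive for 383. The 787 falls had a wild-type median of -0.01, and 408 were negative. In wild-type liver 23 of the rises and none of the falls were called, where 0.116% of probe sets were called in all. The comparisons share no arrays but share the estimate of spread of each probe set.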

How the data were processed

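Biotin-labelled liver RNA was hybridised to Affymetrix mouse exon arrays (Mouse Exon 1.0 ST). The deposited values are log2 expression levels that the authors made with RMA, and Affymetrix Expression Console and the build mm9 are named in the submitters' processing notes. Versions and probe set level are not given in the sources used. The deposited values were taken as they are, without further scaling, filter or pseudocount, and 3 arrays per group limit the precision. The supplied platform annotation gave 1 symbol to 14996 of 23332 probe sets, several to 1019 and none to 7317, which made 14860 genes. A gene with several probe sets (135 genes) was represented by the brightest. Of the probe sets with 1 symbol, 14941 matched RefSeq (GRCm38.p6) by gene number.

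Means of the 4 groups were estimated from all 12 arrays in limma 3.58.1 (R 4.3.3, 8 residual and 2.19 prior degrees of freedom), with Benjamini-Hochberg adjustment over all probe sets and calls at an adjusted p below 0.05. Every adjusted p in the text is from limma. The same fit tested TCDD in wild-type liver and the difference of the TCDD effects. The 43 curated lists and 22 symbol families (839 of 1055 curated symbols measured) are described by counts and medians, with no test of a list. The comparison, lists and genes were chosen with earlier results of these data known. Genes named are Tiparp, the AhR target list, the 12 largest rises and 12 largest falls with non-overlapping arrays, up to 4 called members of each list or family with at least 3 calls and all of those with fewer, and the 6 largest differences between genotypes in each direction, 133 genes in all. Nqo1, Ahrr and the CYP1 genes were always included.

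On simulated data for this comparison with 23332 probe sets, 84% of 50 probe sets changed by a log2 value of 1 were recovered. The share was 72% for changes of -1 and 34% for changes of 0.5, with 7 false among 150 calls. The simulated noise was normal and independent between arrays, with the same spread in every array for a given probe set. Deviations of whole arrays were not simulated, so the false calls do not measure those in the real data. Alternatives were robust and trended empirical Bayes, fewer arrays in the fit, replicate number as a block, other scalings, filters on dim probe sets, array weights, a fold of at least 1.5, wild-type corn oil as the control and leaving out each array.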

Additional observations from a re-analysis of the deposited data

Results flagged for a closer look

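The TCDD effect differed between genotypes, by a test of the difference itself, for 37 probe sets. The named genes with a larger TCDD effect in knockout liver were Ecel1 (3.30), Rnf125 (2.88), Tnfaip2 (2.38), Gadd45b (2.09), Gm7180 (2.06), Tnfrsf19 (1.90), Acacb (1.47), Pmm1 (1.04) and Ctrb1 (0.86), as log2 differences of knockout minus wild-type effects. The named genes with a smaller or opposite effect were Ccne1 (-1.39), Klf10 (-1.36), Znrd1 (-1.27), Slc35a4 (-1.11), Yrdc (-1.09) and Dda1 (-0.92). Of 12 fits that each left out 1 array, Pmm1 was called in 6 and Ctrb1 in 2, and the other named genes in 3 to 5. Groups of 3 arrays were not tested for outlying arrays.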

How the results depend on the processing

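For TCDD in knockout liver the 1303 calls became 184 with only the arrays of the groups compared (119 higher, 65 lower), 2515 with array weights (839 and 1676), 813 with a fold of at least 1.5 (444 lower), 533 with wild-type corn oil as the control (313 and 220) and 458 lower after quantile normalization again. Leaving out 1 array gave 435 to 2004 calls, 226 to 657 higher and 209 to 1347 lower. Replicate numbers were not used to pair the arrays, since samples share only a number. Same-numbered knockout arrays deviated with r = -0.08, -0.02 and -0.04. Across all pairs of groups, same-numbered arrays had r from -0.208 to 0.114, and arrays of different number had r from -0.107 to 0.163. With the replicate block there were 860 calls (468 lower), 0 for the difference between genotypes (3246 at an unadjusted p under 0.05 in limma) and 15 in wild-type liver. The difference count of 37 became 61 after quantile normalization again, 149 and 396 without the lowest 25% and 50% of probe sets, 162 with only probe sets of 1 symbol, 693 with array weights, and 0 to 546 with 1 array left out. That comparison uses all 12 arrays, so a fit of its groups alone is the same. The wild-type count of 27 became 13 with only its own arrays, 52 without the lowest 50% of probe sets, 47 with array weights and 6 to 19 with 1 array left out.

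Of 128 called named genes, 64 kept the call in all 6 fits that left out 1 knockout array, 100 with the block and 38 with only the knockout arrays. With wild-type corn oil as the control the sign turned for Tiparp (-0.58), Got1 (0.09), Ppp1r3c (-0.38), Hjv (-0.0367), Ccnd1 (0.18), Marco (0.0833), Fcer1g (0.33), Klf10 (0.06), Znrd1 (0.20), Slc35a4 (0.28), Yrdc (0.31) and Gm7180 (-0.27), and Xdh, which was not called, ran from -0.16 (without knockout corn oil replicate 3) to 0.23 with 1 array left out. Lists and families with at least 3 called genes numbered 21, and 12 to 34 with 1 array left out. The cause of these moves was not tested, beyond the fewer arrays or probe sets that an alternative leaves. Dim probe sets lie near the background of the array, where changes are understated.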
